A study of Mus musculus with 3 samples.

Results

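The VEGF and angiopoietin genes examined here were the ligands Vegfa, Vegfb, Vegfc and Pgf, the VEGF receptors Kdr and Flt1, the angiopoietins Angpt1 and Angpt2, and the receptors Tek and Tie1. They were chosen by name, as 10 of the 32285 genes in the count tables, and each was found by its Ensembl identifier. All 10 had at least 1 unique molecular identifier (UMI, the tag that marks 1 captured RNA molecule) in every library.

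RNA of single cells was measured in skin wounds of adult male C57BL/6J mice, with no genetic change and no treatment other than wounding, on Days 3, 7 and 14 after injury. The study's methods describe full-thickness excisional wounds made with a biopsy punch, whereas the series description calls the injury incisional. Tissue pooled from several wounds was dissociated and captured unsorted as 1 library per day, so differences between days are differences between 3 libraries, with no replicate and no test. After filtering, 4360, 19590 and 13510 cells with 35291028, 100400439 and 97156500 UMIs remained on Days 3, 7 and 14. Among all barcodes before filtering, 43 were shared between Days 3 and 7, 19 between Days 3 and 14, and 111 between Days 7 and 14.

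VEGF-A, made by many cells when oxygen is low, binds the receptor VEGFR2 (Kdr) on endothelial cells and drives their division and migration. VEGFR1 (Flt1) binds VEGF-A, VEGF-B and placental growth factor (Pgf) tightly and can act as a decoy, and VEGF-C acts mainly on lymphatic vessels through VEGFR3 (Flt4). Angiopoietin 1 activates the receptor TIE2 (Tek) and steadies vessels, angiopoietin 2 often opposes it during remodelling, and TIE1 modulates TIE2.

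Gene positions are on GRCm38 (mm10), the build named in the submitters' processing notes. The ligand genes Vegfa (chromosome 17, 46016993 to 46032369, minus strand), Vegfb (chromosome 19, 6982473 to 6987651, minus strand), Vegfc (chromosome 8, 54077606 to 54187096, plus strand) and Pgf (chromosome 12, 85166635 to 85177790, minus strand) overlapped no other annotated gene. The VEGF receptor genes both lie on chromosome 5, Kdr at 75932827 to 75978458 and Flt1 at 147561604 to 147726011, each on the minus strand and free of overlaps. Tek (94739289 to 94874976, plus strand) and Tie1 (118471191 to 118490061, minus strand) lie on chromosome 4, also free of overlaps. Angpt1 (chromosome 15, 42424723 to 42676977, minus strand) is crossed on the other strand by the antisense gene Gm17473. Angpt2 (chromosome 8, 18690263 to 18741562, minus strand) lies opposite the protein-coding gene Mcph1. The library chemistry reads the 3′ end of the RNA with its strand, so a count joins all isoforms of a gene that share a 3′ end, and levels are compared within a gene across cells rather than between genes.

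RefSeq promoter windows (GRCm38.p6) were found for 8 of the 10 genes. Those of Kdr, Flt1 and Tek are shown because endothelial cell-like cells held these 3 receptors at high levels while other cell classes differed in which of them they carried. Each sequence is the stretch just before the transcript start, 5′ to 3′ along the gene, with every match to GGAA, the core that ETS factors bind, or its reverse complement TTCC in capitals. The windows are chr5:75978459-75978705 for Kdr, chr5:147726012-147726261 for Flt1, both on the minus strand, and chr4:94739039-94739288 on the plus strand for Tek.
Kdr: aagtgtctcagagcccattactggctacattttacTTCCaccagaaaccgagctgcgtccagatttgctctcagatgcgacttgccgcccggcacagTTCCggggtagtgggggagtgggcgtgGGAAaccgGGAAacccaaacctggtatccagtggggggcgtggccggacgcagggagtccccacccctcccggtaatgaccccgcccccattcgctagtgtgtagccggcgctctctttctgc
Flt1: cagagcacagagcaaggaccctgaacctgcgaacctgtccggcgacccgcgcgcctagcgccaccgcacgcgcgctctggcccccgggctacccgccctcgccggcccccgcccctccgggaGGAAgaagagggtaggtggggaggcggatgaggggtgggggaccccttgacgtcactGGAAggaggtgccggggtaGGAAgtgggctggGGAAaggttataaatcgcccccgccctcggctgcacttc
Tek: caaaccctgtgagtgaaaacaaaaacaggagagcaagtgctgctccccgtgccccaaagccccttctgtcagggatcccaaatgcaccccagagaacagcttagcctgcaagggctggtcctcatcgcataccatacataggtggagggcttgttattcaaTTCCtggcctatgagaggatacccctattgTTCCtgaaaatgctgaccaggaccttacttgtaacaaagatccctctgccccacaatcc
In the 250 bases before the start, GGAA on either strand occurred 4 times for Kdr, 4 times for Flt1, 2 times for Tek and 7 times for Tie1. It occurred at least once in 93.4% of 27025 promoters of that length, with a median of 3 and a 90th percentile of 5, so of these 4 genes only Tie1 lay above the 90th percentile. Its RefSeq start lies inside the annotated gene, however, and only 38 of its 250 searched bases lie before the gene. The window before the first start of the ligand gene Vegfa held 6 matches to GGAA, also above the 90th percentile. The hypoxia element cores ACGTG and GCGTG, found on either strand in 16.6% and 28.2% of promoters, were both absent from the window before the first Vegfa start, while the 250 bases before its second start, which lie within the gene, held 1 of each. A match describes letters in a window and is not a binding site.

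Cell classes were named from marker genes after clustering without the 10 genes. Levels are given as CPM, counts of the gene scaled to the total UMIs of the class on that day, and the range in parentheses is the exact 95% Poisson interval, which covers counting error only. Macrophage-like cells numbered 2568, 8673 and 3000 on Days 3, 7 and 14, fibroblast-like cells 400, 5174 and 5127, dendritic cell-like cells 237, 1158 and 509, pericyte-like cells 10, 187 and 429, and endothelial cell-like cells 13, 237 and 235. Day 3 values for pericyte-like and endothelial cell-like cells therefore rest on few cells. All 10 endothelial markers were present in the endothelial cell-like cells of every library, with a summed level of 7152, 6311 and 5275 CPM, against 26.3 to 42.7 CPM in fibroblast-like cells, 276 to 319 CPM in pericyte-like cells and 261 to 453 CPM in macrophage-like cells. Fibroblast-like cells were deeper on Day 3, with a median of 44361 UMIs per cell, than on Days 7 and 14, with 10340 and 10649, and the part of this depth in the Day 3 ratios was not tested.

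**Figure D1:**
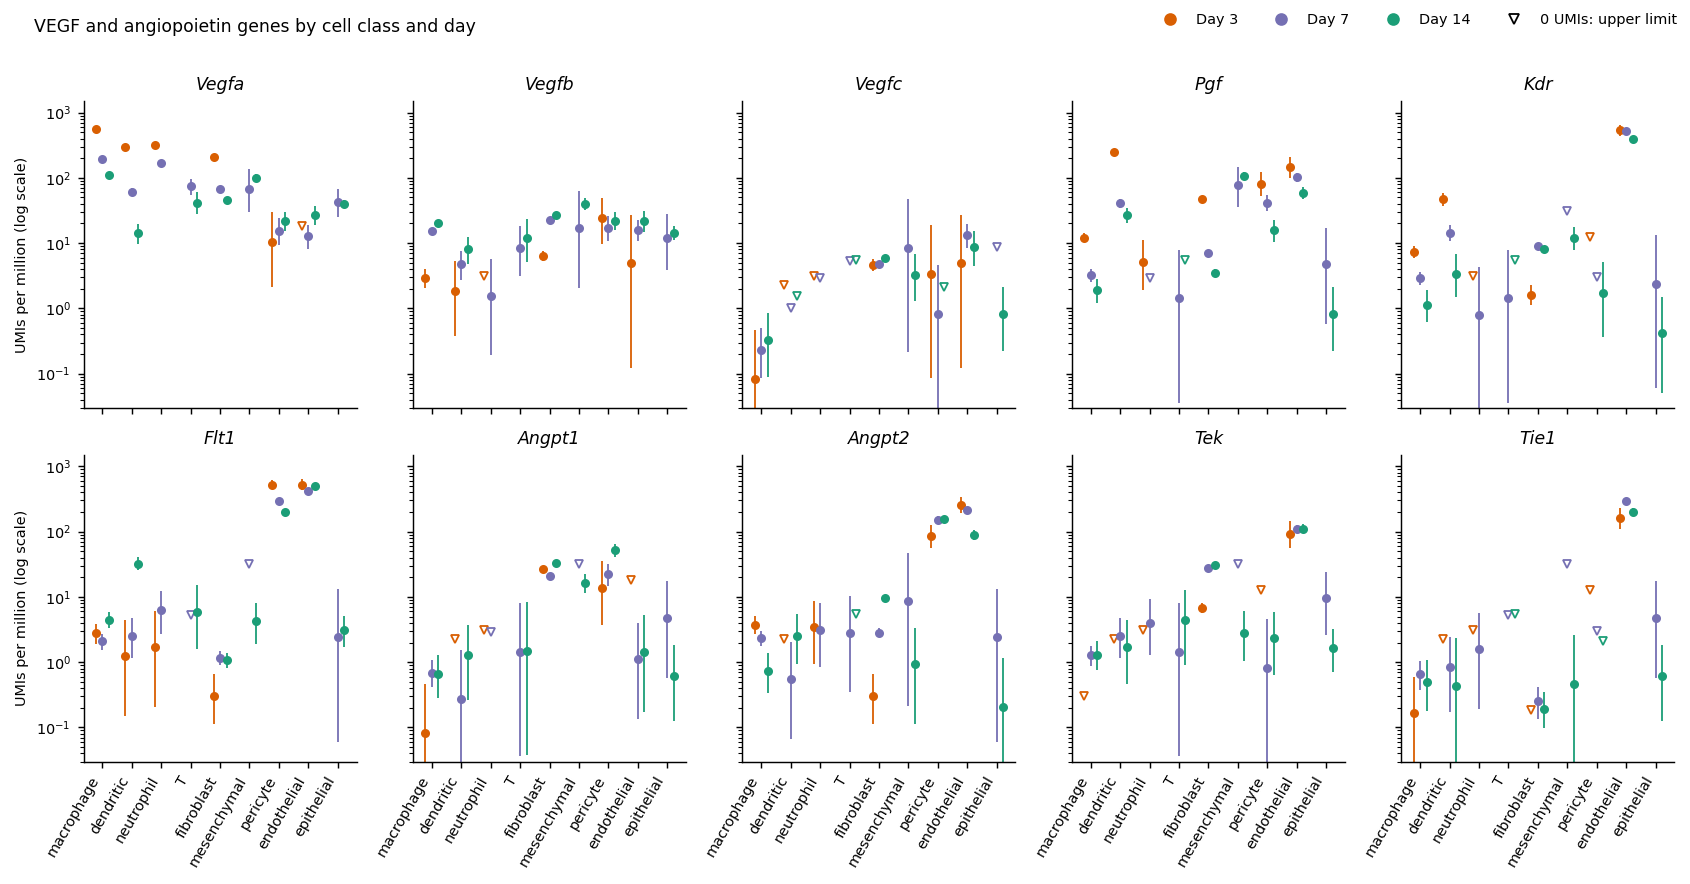
Each panel plots 1 gene by cell class, in CPM on a log axis, with 1 point per library (Day 3, 7 or 14) and bars for exact 95% Poisson intervals; open triangles give the upper limit where no UMI was found, and classes are shown from 50 cells, or from 10 for pericyte-like and endothelial cell-like cells. Vegfa was lower in each later library in macrophage-like cells, from 568 to 112 CPM, while Kdr and Tie1 stood above 100 CPM only in endothelial cell-like cells, and Flt1 in those and in pericyte-like cells.

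Vegfa was lower in each later library over all cells, at 335 CPM (329 to 341), 99.9 CPM (98.0 to 101.9) and 53.9 CPM (52.5 to 55.4) in the Day 3, 7 and 14 libraries. In macrophage-like cells it was 568 CPM (554 to 581), 198 CPM (192 to 203) and 112 CPM (106 to 118). The Day 7 library was thus 2.87-fold below the Day 3 library in these cells, a log2 ratio of -1.52 (-1.58 to -1.47), and the Day 14 library was 1.76-fold below Day 7, a log2 ratio of -0.82 (-0.90 to -0.73). Fibroblast-like cells gave 209 CPM (203 to 216), 68.6 CPM (66.4 to 70.8) and 45.1 CPM (43.4 to 46.9), which is 3.06-fold lower on Day 7 than on Day 3. In dendritic cell-like cells the values were 299 CPM, 61.0 CPM and 14.0 CPM, a 21.3-fold difference between Days 3 and 14 with a log2 ratio of -4.42 (-4.97 to -3.91). Under the alternatives the dendritic log2 ratio of -2.30 between Days 3 and 7 ranged from -3.12 to -1.09, the latter at Leiden resolution 0.5, and that of -2.12 between Days 7 and 14 from -2.53 to -1.10. Neutrophil-like cells on Days 3 and 7 gave 317 CPM (286 to 351) and 166 CPM (145 to 190), and only 21 of them were kept on Day 14. Their median depths on Days 3 and 7 were 1224.5 and 708 UMIs, and they held summed macrophage markers at 6408 and 4411 CPM. The part of RNA from other cells in their Vegfa values was not tested.

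The order of days in macrophage-like cells was the same in the share of cells with a Vegfa UMI once each cell was thinned to 500 UMIs. This share was 22%, 8.90% and 4.73% on Days 3, 7 and 14, and 60.4%, 29.6% and 21.0% before thinning. It was 8%, 2.98% and 2.59% in fibroblast-like cells and 10.1%, 2.76% and 0% in dendritic cell-like cells. In T cell-like cells, which were used to gauge free RNA in the droplets, it was 4.43% on Day 7 and 1.89% on Day 14, with median depths of 1423 and 1805 UMIs against 2676 and 3719 in macrophage-like cells. Endothelial cell-like cells gave 0.844% and 0.851% on the same days. As a level, Vegfa in T cell-like cells was 74.0 and 41.4 CPM, no lower than in dendritic cell-like cells and close to fibroblast-like cells on these days. Before thinning the shares were 10.4% and 5.99% in T cell-like cells and 9.28% and 9.36% in endothelial cell-like cells. Vegfa in endothelial cell-like cells was at 12.7 CPM (8.05 to 19.1) and then 26.6 CPM (18.7 to 36.7). Its share lay below that of T cell-like cells on both days after thinning. Before thinning it was above on Day 14, at median depths of 3847 against 1805 UMIs. No difference is read from it, and as a mean of each cell's CPM its log2 ratio of 1.07 between these days became -0.13. The thinned shares of fibroblast-like and dendritic cell-like cells on Days 7 and 14 lay below or within the intervals of the T cell-like shares, 2.60% to 6.99% and 0.698% to 4.07%. Pericyte-like and endothelial cell-like cells, with median depths of 5598 and 6124 UMIs on Day 7 against 10340 in fibroblast-like cells, were lower, at 15.5 and 12.7 CPM on that day and 21.5 and 26.6 CPM on Day 14. Summed macrophage markers on Day 7 were 276 CPM in fibroblast-like cells and 1183 CPM in T cell-like cells. These classes thus differed in Vegfa level and in depth, so CPM or thinned shares of shallow cells cannot set a background for deeper cells. The part of free RNA in any class was not tested, and no difference between Days 7 and 14 is read for fibroblast-like and dendritic cell-like cells.

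Which macrophages were present differed by day, and Vegfa differed among them. Cluster 0, led by Arg1 and Chil3, made up 86.3% of macrophage-like cells on Day 3, 8.22% on Day 7 and 1.00% on Day 14, and held 578 CPM of Vegfa (565 to 592) over all days. Cluster 1, led by Mmp12 and Cd36, held 305 CPM (293 to 316) and made up 28.5% of the class on Day 7. Cluster 3, led by Ccl8 and Slamf7, was 45.6% of the class on Day 14 and held 209 CPM (199 to 219). Cluster 8, led by Cx3cr1, was far lower, at 39.3 CPM on Day 7 and 32.4 CPM on Day 14. Within most of these clusters the later library was also lower, but in clusters 6 and 8 the interval of the Day 14 over Day 7 ratio held 0. Cluster 0 went from 602 to 481 CPM between the Day 3 and Day 7 libraries, a log2 ratio of -0.32 (-0.43 to -0.22). Cluster 13, led by Ly6c2, gave 381, 206 and 100.5 CPM on Days 3, 7 and 14. Dendritic cell-like cluster 12, led by Cd209a, gave 348, 71.0 and 12.8 CPM.

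Among fibroblast-like clusters the Day 3 to Day 7 difference was present within clusters 4 and 22. Cluster 4, led by Cxcl5 and Saa3, held 226 CPM of Vegfa on Day 3 and 86.7 CPM on Day 7, a log2 ratio of -1.38 (-1.47 to -1.30). Cycling cluster 22 went from 196 to 73.1 CPM. Between Days 7 and 14, from which no difference is read for the class, the log2 ratio was -0.66 (-0.91 to -0.40) in cluster 9, led by Mgp and Ccn2, and 0.28 (0.08 to 0.47) in Pi16-bearing cluster 5. It was -0.09 (-0.31 to 0.13) in cluster 11 and 0.36 (-0.14 to 0.89) in cluster 2, so these intervals held 0. Clusters 4 and 5 held most fibroblast-like cells on Day 7, at 38.2% and 31.7%, and clusters 2 and 9 on Day 14, at 48.4% and 26.0%.

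**Figure D2:**
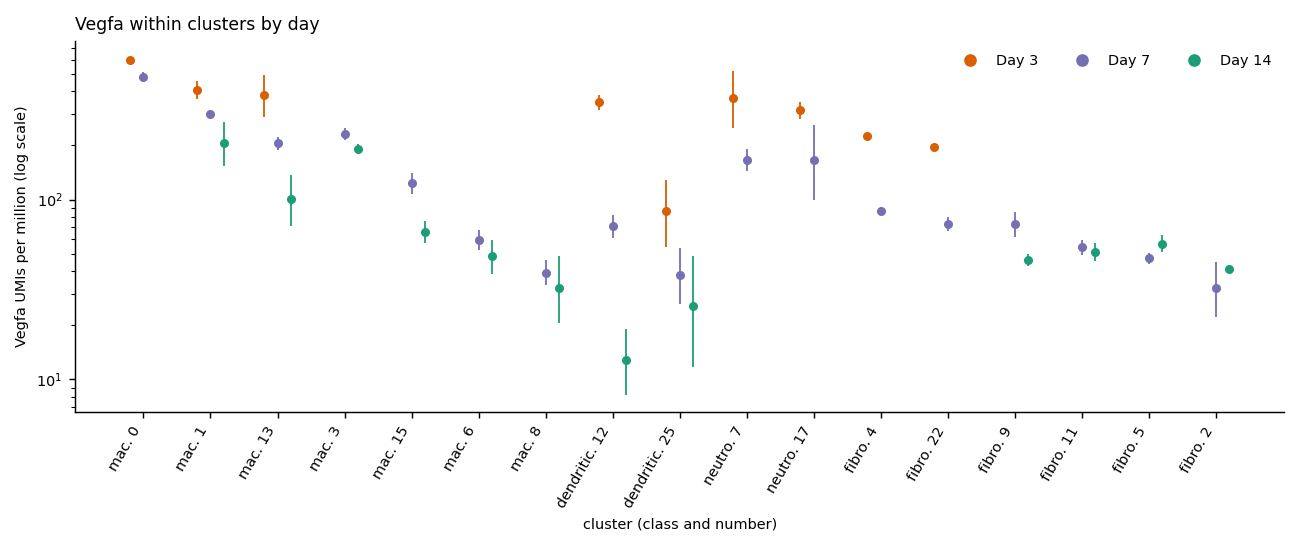
Vegfa in macrophage-like (mac.), dendritic cell-like, neutrophil-like (neutro.) and fibroblast-like (fibro.) clusters, in CPM on a log axis, for each library with at least 50 cells of the cluster; bars are exact 95% Poisson intervals. Within most macrophage-like clusters the later library lies lower, and dendritic cluster 12 is lower on Day 7 than on Day 3, at 71.0 against 348 CPM.

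Vegfb, whose product binds VEGFR1 among the VEGF receptor kinases, went the other way. It was 4.87 CPM (4.17 to 5.66), 19.4 CPM (18.5 to 20.2) and 24.1 CPM (23.1 to 25.1) over all cells on Days 3, 7 and 14. Macrophage-like cells gave 2.92, 15.1 and 20.2 CPM, and fibroblast-like cells gave 6.34, 22.3 and 26.8 CPM. The Day 7 library was 5.15-fold above Day 3 in the former, a log2 ratio of 2.37 (1.87 to 2.91), and 3.52-fold above it in the latter, a log2 ratio of 1.82 (1.55 to 2.10). Within macrophage-like cluster 0 Vegfb was 2.38 CPM on Day 3 and 5.28 CPM on Day 7, a log2 ratio of 1.15 (-0.07 to 2.26), whose interval holds 0, while in cluster 1 the ratio was 1.76 (0.37 to 3.66) and in fibroblast-like cluster 4 it was 2.10 (1.66 to 2.57). The step from Day 7 to Day 14 was smaller, at 1.34-fold and 1.20-fold. Its interval held 0 within macrophage-like clusters 3, 8, 15 and 26, and the log2 ratio was 1.63 (0.72 to 2.42) in cluster 1 and 0.63 (0.10 to 1.16) in cluster 6. Within fibroblast-like clusters 2, 5 and 11 the interval also held 0, and cluster 9 gave 0.81 (0.35 to 1.30). Fibroblast-like cells held 72.7%, 64.2% and 64.6% of all Vegfb UMIs. Neutrophil-like cells held 0, 2 and 0 Vegfb UMIs on Days 3, 7 and 14, and T cell-like cells 6 and 8 on Days 7 and 14. The part of free RNA in the macrophage-like values was not tested.

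Vegfc, the main ligand of the lymphatic receptor VEGFR3, stayed low and belonged to stromal and endothelial cells. It was 2.75, 4.10 and 5.70 CPM over all cells. Fibroblast-like cells gave 4.66 CPM (3.76 to 5.72), 4.76 CPM (4.21 to 5.37) and 5.94 CPM (5.32 to 6.61), with a log2 ratio of 0.32 (0.08 to 0.56) between Days 7 and 14. Under the alternatives this ratio ranged from 0.003 to 0.536, and within clusters 2, 5 and 9 its interval held 0. The highest cluster levels were in 2 clusters that carried all 8 fibroblast markers and were left unnamed because a marker of another class was among their leading genes, cluster 19 at 14.1 CPM (11.7 to 16.9) and cluster 10 at 13.9 CPM (11.95 to 16.2). Cluster 19 was led by Prss35 and Tnn with Acta2, and 87.4% of its 792 cells came from Day 7. Cluster 10 was led by Igfbp2 and Wfdc12 with Tnmd, and 2.37% of its 1436 cells came from Day 7 and none from Day 3. Unnamed cells, which include these clusters, were 5.60%, 10.2% and 17.8% of cells on the 3 days.

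Pgf was found in dendritic cell-like, stromal and endothelial cell-like cells. In dendritic cell-like cells of Days 3, 7 and 14 it was 246 CPM (223 to 271), 40.5 CPM (34.2 to 47.6) and 26.8 CPM (20.6 to 34.3). Fibroblast-like cells gave 47.4 CPM (44.4 to 50.5), 7.00 CPM (6.33 to 7.73) and 3.47 CPM (3.00 to 3.995). The Day 7 library was thus 6.08-fold and 6.77-fold below Day 3 in these classes, and the Day 3 intervals lie far above the later ones. Within cluster 4 Pgf went from 59.1 to 7.42 CPM between these days, but in none of 4 fibroblast-like clusters was the Day 14 library lower than Day 7 with an interval clear of 0. On the log2 scale the ratio was -0.15 (-0.68 to 0.36) in cluster 5 and 0.18 (-1.73 to 3.26) in cluster 2. Cluster 9 gave 1.39 (-0.57 to 4.49), and cluster 11 gave 0.85 (0.22 to 1.48). Endothelial cell-like cells gave 146 CPM (98.7 to 209), 101.6 CPM (87.4 to 117) and 59.0 CPM (46.9 to 73.2), the first from 30 UMIs in 2 cells, and held 20.2% of Pgf UMIs on Day 7. Pericyte-like cells gave 81.9, 41.7 and 15.7 CPM, but with a 5% limit on mitochondrial UMIs the log2 ratio of Day 7 over Day 3 turned from -0.97 to 1.35. Both dendritic cell-like clusters with enough cells showed it on Day 3, cluster 12 at 271 CPM and Ccr7-bearing cluster 25 at 146 CPM. On Day 14 the largest share of Pgf UMIs, 34.4%, lay in Bmp4-bearing mesenchymal cell-like cells, at 108 CPM (94.2 to 122). The 179 dendritic cell-like cells with a Pgf UMI held no UMI of the endothelial genes Tie1 and Cdh5, and Flt3, a dendritic receptor, stood at 201 CPM in them and 176 CPM in those without.

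**Figure D3:**
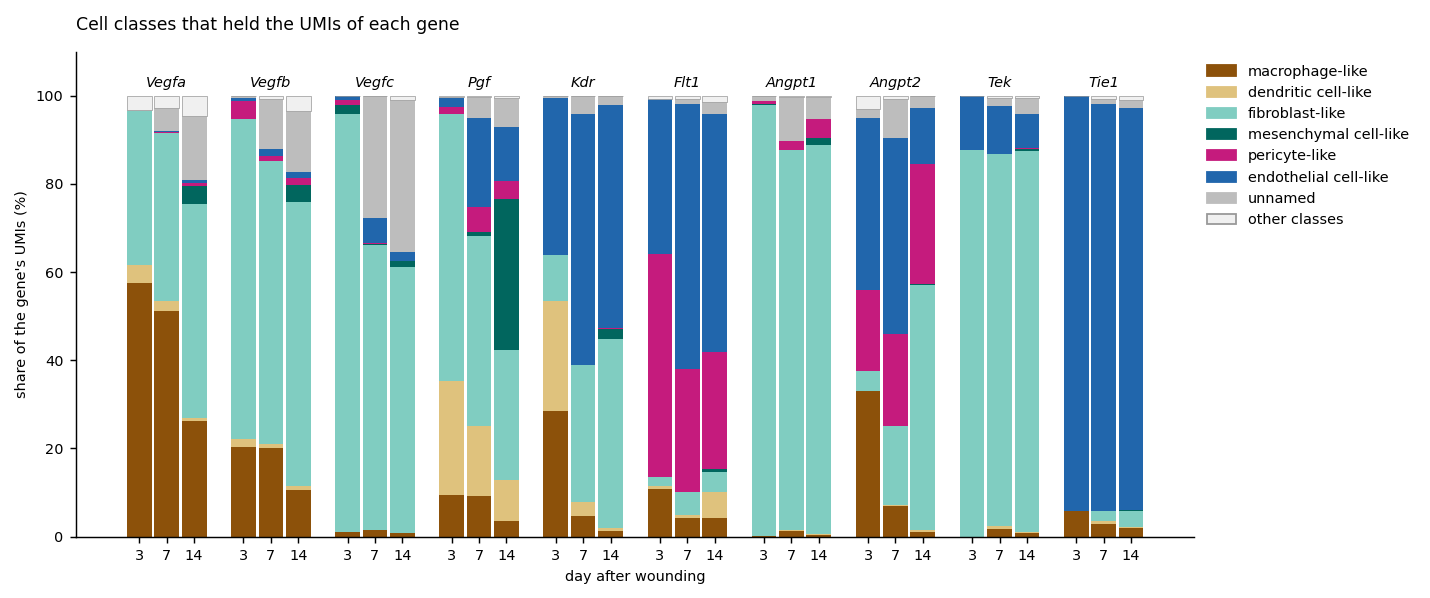
Stacked bars give, for each gene and library, the share (%) of its UMIs found in each cell class; bars sum to 100% and are not adjusted for the number of cells. Tie1 UMIs came almost wholly from endothelial cell-like cells (92.3% on Day 7), whereas Tek UMIs came mostly from fibroblast-like cells (84.5% on Day 7), and macrophage-like cells held 57.4%, 51.1% and 26.2% of Vegfa UMIs on Days 3, 7 and 14.

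Kdr was highest in endothelial cell-like cells, at 537 CPM (441 to 647), 514 CPM (482 to 549) and 396 CPM (364 to 431) on Days 3, 7 and 14. The Day 14 library was 1.30-fold below Day 7, a log2 ratio of -0.38 (-0.53 to -0.22), while the Day 3 interval covers the Day 7 value. Pericyte-like cells held 0, 0 and 3 Kdr UMIs and neutrophil-like cells 0, 1 and 0. Endothelial cell-like cells held 57.1% of Kdr UMIs on Day 7 and 50.6% on Day 14.

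A large share of Kdr UMIs lay outside the endothelium at low levels. Fibroblast-like cells gave 1.62 CPM (1.11 to 2.29), 9.06 CPM (8.29 to 9.89) and 8.24 CPM (7.51 to 9.03), so the Day 7 library was 5.59-fold above Day 3, and they held 31.0% and 42.7% of Kdr UMIs on Days 7 and 14. The 777 fibroblast-like cells with a Kdr UMI held 1 UMI of Tie1 and 6 of Cdh5 in all. Pecam1 was 2.20 CPM (1.41 to 3.28) in them against 1.36 CPM (1.16 to 1.59) in those without, and Col1a1 was 45660 CPM against 40020 CPM, with median depths of 12176 and 10520 UMIs. Among their clusters Kdr went from 1.82 to 11.04 CPM between Days 3 and 7 in cluster 4. Between Days 7 and 14 cluster 9 went from 2.31 to 9.57 CPM, whereas cluster 11 was lower, at 10.1 and then 5.66 CPM. Dendritic cell-like cells went the other way, at 47.4 CPM (37.4 to 59.2), 14.4 CPM (10.8 to 18.9) and 3.40 CPM (1.47 to 6.71), and cluster 28, led by Siglech, held 43.3 CPM over all days. The 77 dendritic cell-like cells with a Kdr UMI held no Tie1 UMI, but Cdh5 was 20.8 CPM (8.97 to 40.9) in them against 5.97 CPM (4.32 to 8.04) in those without, and Flt3 was 241.5 and 176 CPM; the part of endothelial RNA in this result was not tested. Macrophage-like cells gave 7.35, 2.89 and 1.14 CPM, but within cluster 0, which held most of them on Day 3 and few on Day 7, Kdr was 7.98 and 6.33 CPM on these days, a log2 ratio of -0.33 (-1.34 to 0.55).

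Flt1 was shared by endothelial cell-like and pericyte-like cells. Endothelial cell-like cells gave 522 CPM (428 to 631), 422 CPM (392 to 453) and 505 CPM (468 to 544), of which Day 14 was 1.20-fold above Day 7. That log2 ratio of 0.26 (0.11 to 0.41) became -0.002 when more doublets were removed, and the Day 7 over Day 3 ratio changed sign under 3 settings. Pericyte-like cells gave 525 CPM (446 to 615), 291 CPM (261 to 323) and 200 CPM (180 to 223), each interval below the one before. With the class set cell by cell, the Day 7 over Day 3 log2 ratio moved from -0.85 to 0.00. The 247 pericyte-like cells with a Flt1 UMI held no Tie1 UMI and 3 Cdh5 UMIs, but Pecam1 was 6.08 CPM (2.91 to 11.2) in them against 1.26 CPM (0.152 to 4.53) in those without. Rgs5, a pericyte marker, was 5811 CPM (5695 to 5929) in them against 7578 CPM (7443 to 7714), and the part of endothelial RNA in the Flt1 values was not tested. Pericyte-like cells held 28.0% and 26.5% of Flt1 UMIs on Days 7 and 14.

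Dendritic cell-like cells carried Flt1 at a lower level that was higher in the Day 14 library. They gave 1.23 CPM (0.149 to 4.44), 2.49 CPM (1.14 to 4.73) and 32.3 CPM (25.5 to 40.5) on Days 3, 7 and 14, from 2, 9 and 76 UMIs. The Day 14 library was 13-fold above Day 7, a log2 ratio of 3.70 (2.70 to 4.88), while Kdr in the same class was 4.23-fold below. This Flt1 ratio had no value at Leiden resolution 0.5, and ranged from 3.41 to 4.15 under the alternatives that gave one. The 54 dendritic cell-like cells with a Flt1 UMI held Flt3 at 40.8 CPM (20.4 to 73.1), against 185 CPM (175 to 195) in the others. T cell-like cells held 0 UMIs on Day 7 and 5.92 CPM (1.61 to 15.1) on Day 14, and neutrophil-like cells of Day 7 held 6.27 CPM (2.71 to 12.3). Macrophage-like cells, at 2.76, 2.08 and 4.50 CPM, did not exceed the highest of these on Days 7 and 14. Those highest values rest on 8 neutrophil-like UMIs of Day 7 and 4 T cell-like UMIs of Day 14. Median depths were 708 and 1805 UMIs there, against 2676 and 3718.5 in macrophage-like cells of these days. The comparison therefore cannot set a background for macrophage-like cells, and no difference is read from the class. In Ly6c2-led cluster 13 the Day 14 library reached 30.9 CPM against 11.2 CPM on Day 7, a log2 ratio of 1.47 (0.36 to 2.49). Cluster 15, led by Retnla and Lyz1, gave 9.626 CPM against 1.675 CPM on the same days, a log2 ratio of 2.52 (0.84 to 4.88).

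Angpt1, the TIE2 agonist, was a stromal gene. Fibroblast-like cells gave 26.6 CPM (24.4 to 29.0), 21.2 CPM (19.96 to 22.4) and 32.5 CPM (31.1 to 34.0), and held 97.8%, 86.3% and 88.2% of all Angpt1 UMIs. The Day 14 library was 1.54-fold above Day 7, a log2 ratio of 0.62 (0.51 to 0.73). Within the clusters present on both days the ratio was smaller or turned. On the log2 scale cluster 2 gave 0.28 (-0.26 to 0.86), cluster 5 gave 0.19 (-0.09 to 0.47) and cluster 9 gave -0.01 (-0.35 to 0.34), whose intervals hold 0. Cluster 11 gave -0.52 (-0.85 to -0.20). Clusters 9 and 2, which made up most of the class on Day 14, held the most, at 38.4 and 33.0 CPM, and cluster 10 held 5.70 CPM. Pericyte-like cells of Days 7 and 14 gave 22.1 CPM (14.5 to 32.1) and 51.7 CPM (41.5 to 63.6), and endothelial cell-like cells held 2 UMIs on each of these days.

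Angpt2, which loosens vessel walls, was at its highest levels in endothelial cell-like and pericyte-like cells, and the classes differed in direction. Endothelial cell-like cells gave 259 CPM (194 to 338), 214 CPM (193 to 237) and 88.5 CPM (73.5 to 106), so Day 14 was 2.42-fold below Day 7, a log2 ratio of -1.28 (-1.58 to -0.98). Pericyte-like cells gave 85.3 CPM (55.2 to 126), 150 CPM (129 to 173) and 155 CPM (137 to 175). Angpt2 in fibroblast-like cells was 0.304 CPM (0.112 to 0.662), 2.81 CPM (2.39 to 3.29) and 9.66 CPM (8.86 to 10.5), a log2 ratio of 1.78 (1.52 to 2.05) between Days 7 and 14. Under the alternatives this ratio ranged from 1.15 to 1.93, and that of 3.21 between Days 3 and 7 from 1.06, with each library clustered alone, to 3.72. It was highest there in clusters 9 and 2, at 13.01 and 10.5 CPM, and these clusters gave 0.56 (-0.10 to 1.30) and 0.92 (-0.22 to 2.37) on the log2 scale between the same days. T cell-like and neutrophil-like cells of Day 7 held 2.85 CPM (0.345 to 10.3) and 3.13 CPM (0.854 to 8.03), from 2 and 4 UMIs. In CPM the fibroblast-like value of that day is not above theirs. Median depths were 1423 and 708 UMIs in these classes against 10340 in fibroblast-like cells, so the comparison cannot set a background for the deeper cells. T cell-like cells of Day 14 held 0 Angpt2 UMIs, with an upper limit of 5.46 CPM. By number, fibroblast-like cells held 17.9% of Angpt2 UMIs on Day 7 and 55.6% on Day 14, and endothelial cell-like cells 44.3% and 12.6%. Of the 136 Angpt2 UMIs of Day 3, macrophage-like cells held 33.09%, at a level of 3.757 CPM. Endothelial cell-like and pericyte-like cells held 38.97% and 18.38% of them.

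Tek, which encodes TIE2, was near the same level in endothelial cell-like cells of every library, at 92.7 CPM (55.8 to 145), 112 CPM (96.7 to 128) and 111 CPM (94.6 to 131). Most of its UMIs lay elsewhere, with 84.5% and 86.6% in fibroblast-like cells on Days 7 and 14 and 10.97% of the Day 7 UMIs in endothelial cell-like cells. Fibroblast-like cells gave 6.84 CPM (5.74 to 8.10), 27.8 CPM (26.5 to 29.3) and 30.6 CPM (29.1 to 32.1), and the Day 7 library was 4.07-fold above Day 3. These UMIs were concentrated in clusters 5 and 11, which both carried Pi16 among their leading genes, at 60.5 CPM (57.2 to 64.0) and 62.5 CPM (58.4 to 66.8), against 6.75 to 18.96 CPM in the other fibroblast-like clusters. From Day 7 to Day 14, cluster 11 went from 41.9 to 90.2 CPM, a log2 ratio of 1.11 (0.91 to 1.31), and cluster 5 from 55.7 to 73.0 CPM. Clusters 5 and 11 held 2 of the 400 fibroblast-like cells of Day 3. Between Days 3 and 7 the Tek log2 ratio was 0.75 (0.39 to 1.13) within cluster 4 and 0.60 (0.02 to 1.18) within cluster 22, against 2.025 for the class.

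The Tek UMIs of fibroblast-like cells did not come with other endothelial genes. The 2419 fibroblast-like cells with a Tek UMI held 1 Tie1 UMI, or 0.0322 CPM, against 0.238 CPM in the 8282 without one. In the same cells Pecam1 was 1.19 CPM against 1.51 CPM and Cdh5 was 0.871 CPM against 2.22 CPM, while Col1a1 was 39320 and 40850 CPM. Median depth was 10677 and 10630 UMIs in the cells with and without Tek. After thinning to 500 UMIs, Tek was found in 1.66% and 1.64% of fibroblast-like cells on Days 7 and 14, against 0.244% of neutrophil-like cells on Day 7, whose median depth was 708 UMIs. Before thinning the fibroblast-like shares were 21.7% and 23.4%.

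Tie1, the orphan partner of TIE2, came almost wholly from the endothelium, with 94.3%, 92.3% and 91.0% of its UMIs in endothelial cell-like cells. There it was 161 CPM (111 to 226), 297 CPM (272 to 323) and 203 CPM (180 to 228), and Day 14 was 1.46-fold below Day 7. Pericyte-like cells held no Tie1 UMI in any library, which allows up to 3.01 CPM on Day 7 and 2.14 CPM on Day 14. Over Kdr, Flt1, Tek and Tie1 together, endothelial cell-like cells held 41.2% (40.2% to 42.2%, exact binomial interval) of UMIs on Days 7 and 14.

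**Figure D4:**
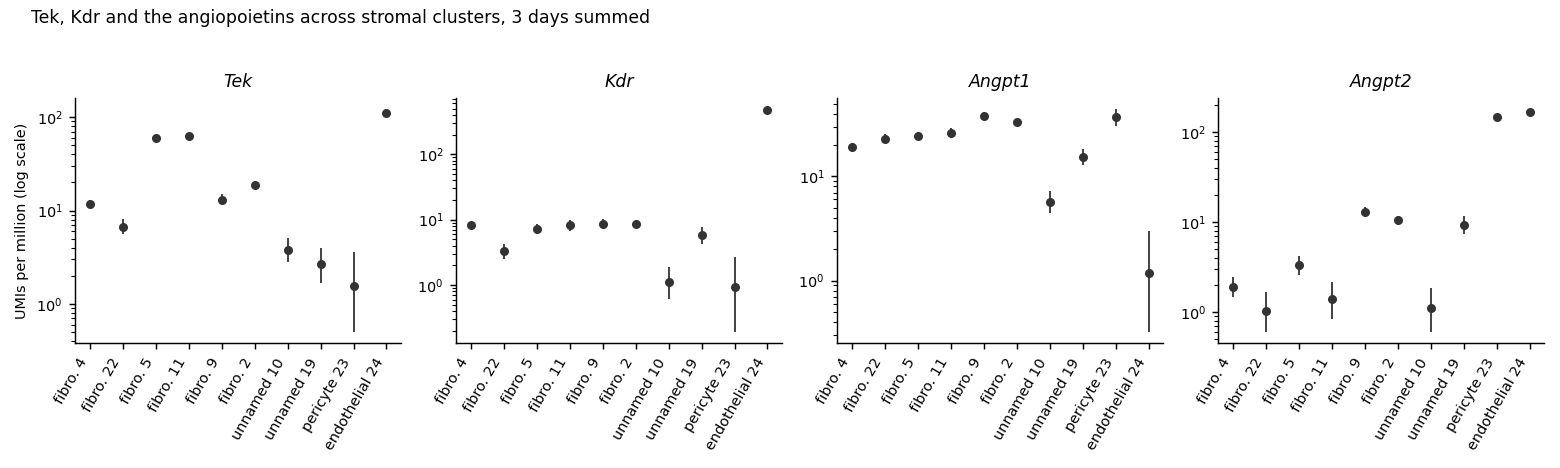
Tek, Kdr, Angpt1 and Angpt2 in 6 fibroblast-like (fibro.) clusters, unnamed clusters 10 and 19, and the pericyte-like and endothelial cell-like clusters, in CPM on a log axis with the 3 libraries summed; bars are exact 95% Poisson intervals. Tek stands out in fibroblast-like clusters 5 and 11 at 60.5 and 62.5 CPM, Kdr lies between 7.25 and 8.63 CPM in the fibroblast-like clusters other than cluster 22 although it differed by day within clusters 4, 9 and 11, and Angpt2 is higher in clusters 9 and 2, at 13.01 and 10.5 CPM, than in the other fibroblast-like clusters.

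The endothelial cell-like cluster held 2 kinds of cell by the lymphatic markers Prox1, Mmrn1, Ccl21a and Reln. None of these was found in 380 cells, at least 2 in 97 cells, and 1 in 8 cells, which were left out. Of the 97, 55 held all 4 markers and 10 held 2, and 1 came from Day 3, so this comparison used Days 7 and 14 only. It comprised 182 and 186 cells with no lymphatic marker and 49 and 47 lymphatic endothelial cell-like cells. Prox1, the lymphatic master regulator, had no UMI in the former, as the split required.

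Flt1 separated these kinds of cell more than the other receptors. It was 559 CPM (519 to 601) and 755 CPM (699 to 814) on Days 7 and 14 without lymphatic markers, and the lymphatic cells held 0 and 1 UMI, with upper limits of 8.32 and 11.8 CPM. Kdr was 493 and 369 CPM in the former and 548 and 438 CPM in the latter, a log2 ratio of lymphatic over marker-free cells of 0.15 (-0.02 to 0.31). For Tie1 that ratio was 0.08 (-0.14 to 0.30), and for Tek -0.66 (-1.06 to -0.28). Flt4, the VEGF-C receptor, was 21.1 and 17.9 CPM against 541 and 364 CPM. The co-receptor Nrp1 was 224 and 201 CPM without lymphatic markers and 6.77 and 8.51 CPM in lymphatic cells, while its relative Nrp2 was 291 and 268 CPM against 1101 and 457 CPM.

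Ligands within the endothelium also differed by kind of cell. Angpt2 was 176 CPM (154 to 200) and 59.2 CPM (44.4 to 77.5) on Days 7 and 14 without lymphatic markers, and 345 CPM (293 to 404) and 149 CPM (116 to 188) in lymphatic cells, so both were lower on Day 14, with log2 ratios of -1.57 (-2.03 to -1.13) and -1.21 (-1.64 to -0.80). Pgf was 95.7 CPM (79.8 to 114) and 15.6 CPM (8.55 to 26.2) without lymphatic markers, a log2 ratio of -2.61 (-3.52 to -1.81). In lymphatic cells it was 124 CPM (93.5 to 162) and 145 CPM (112 to 183), a log2 ratio of 0.22 (-0.31 to 0.76). Vegfc was 18.1 and 12.3 CPM without lymphatic markers and 0 and 1 UMI with them. The log2 ratio of lymphatic over marker-free cells was 1.77 (0.99 to 2.57) for Vegfa and 1.95 (1.14 to 2.79) for Vegfb. Vegfa was 11.3 and 11.2 CPM on Days 7 and 14 without lymphatic markers. In lymphatic cells it was 18.0 and 57.4 CPM, from 8 and 27 UMIs, and the part of free RNA in these values was not tested.

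**Figure D5:**
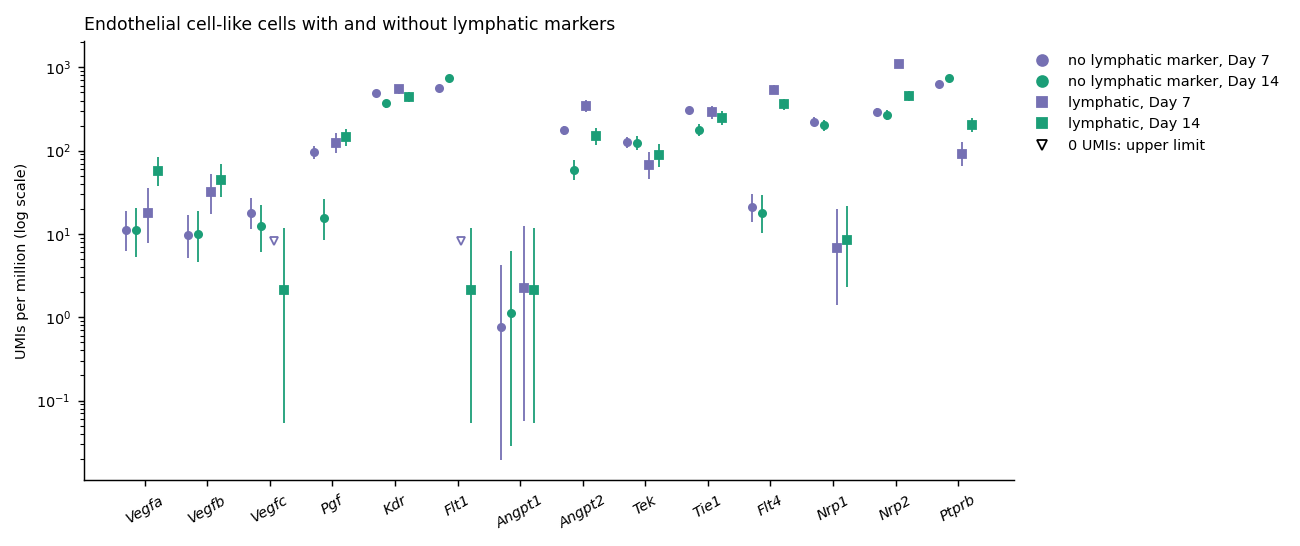
The 10 genes and 4 further receptor genes in endothelial cell-like cells with no lymphatic marker (circles) and in lymphatic endothelial cell-like cells (squares) on Days 7 and 14, in CPM on a log axis; bars are exact 95% Poisson intervals and the open triangle is an upper limit at 0 UMIs. Flt1 and Nrp1 lie in the cells without lymphatic markers, Flt4 and Nrp2 are higher in the lymphatic cells, and Pgf is low on Day 14 only without lymphatic markers, at 15.6 CPM.

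Set against all genes, the 10 moved often between Days 3 and 7 over all cells. Of the genes with at least 50 UMIs in the libraries compared, 10.3% were at least 2-fold higher on Day 7 and 7.98% at least 2-fold lower. Among the 10, Vegfb, Angpt2, Tek and Tie1 were higher and Vegfa and Pgf lower by that measure. Over all cells such a difference combines the level within cells with the share of each class, and this value alone cannot tell them apart. Tie1 was 5.86-fold higher on Day 7 over all cells and 1.84-fold higher within endothelial cell-like cells. That class was 0.298% of cells on Day 3, only 13 cells, and 1.21% on Day 7. From Day 7 to Day 14, 9.80% of genes were higher and 8.08% lower, and none of the 10 passed 2-fold. The median gene shifted by -0.09 and -0.12 on the log2 scale in these comparisons and the median of the 10 by 0.74 and 0.12.

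Within macrophage-like cells 6 of the 10 had enough UMIs. From Day 3 to Day 7, 9.04% of genes were at least 2-fold higher and 4.62% lower, and Vegfb was higher and Vegfa, Pgf and Kdr lower. Within cluster 0 the Pgf log2 ratio was -0.12 (-0.83 to 0.52), and the intervals of Kdr and Vegfb, given above, also held 0. From Day 7 to Day 14 the backgrounds were 3.73% and 5.58%, and Flt1 was higher and Kdr and Angpt2 lower, of which Flt1 and Angpt2 were at levels also found in neutrophil-like or T cell-like cells. Those classes had few UMIs of these genes and lower median depth, so they cannot set a background for macrophage-like cells. Kdr rested on 75 and 14 UMIs. Neutrophil-like and T cell-like cells each held 1 Kdr UMI on Day 7 and 0 on Day 14, too few to set the macrophage-like level apart. In fibroblast-like cells 9 of the 10 could be compared. From Day 3 to Day 7, 9.40% of genes were higher and 9.73% lower, and Vegfb, Kdr, Flt1, Angpt2 and Tek were higher and Vegfa and Pgf lower. Within clusters 4 and 22 the Tek ratio, given above, stayed under 2-fold. Flt1 there rested on 6 and 65 UMIs, and its log2 ratio of 1.94 became -2.82 with each library clustered alone. From Day 7 to Day 14, 4.54% were higher and 8.31% lower, and Angpt2 was higher and Pgf lower. Within the clusters given above, neither gene had an interval clear of 0 in that direction. In endothelial cell-like cells, with 8 of the 10 compared and backgrounds of 5.09% higher and 7.52% lower, Angpt2 was lower on Day 14 and Vegfa higher. The part of free RNA in that Vegfa value was not tested, and no difference is read from it, as said above.

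The other genes of the pathway were 25 further receptors, ligands, transducers, sprout genes and oxygen sensors, fixed by name. Their counts are to be read against the shares of all genes given above for the same class and days, and a count near such a share says nothing particular of the list. From Day 3 to Day 7 over all cells, Flt4, Ptprb, Adamts3, Sh2d2a and Dll4 were at least 2-fold higher and Apln and Egln3 at least 2-fold lower. From Day 7 to Day 14 none was higher and 6 were lower, namely Vegfd, Ccbe1, Adamts3, Esm1, Apln and Egln3. In macrophage-like cells 14 of the 25 could be compared, of which 1 was higher and 3 lower from Day 3 to Day 7, and none higher and 2 lower (Hif1a and Egln3) from Day 7 to Day 14. In fibroblast-like cells Nrp2, Adamts3 and Foxo1 were higher and Apln lower among 18 from Day 3 to Day 7, and Ptprb was higher and 6 were lower among 19 from Day 7 to Day 14. In endothelial cell-like cells none of 16 was higher on Day 14 and Gab1, Esm1 and Apln were lower. Vegfd, a lymphatic ligand like Vegfc, was a fibroblast gene at 164, 107 and 37.9 CPM in fibroblast-like cells, which held 99.1%, 93.4% and 87.2% of its UMIs. Ccbe1, needed to process VEGF-C, gave 16.98, 17.9 and 4.71 CPM there.

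Genes of sprouting and of oxygen sensing differed in direction from gene to gene. In endothelial cell-like cells the tip cell gene Esm1 was 146, 88.3 and 18.7 CPM and the peptide gene Apln was 824, 151 and 45.3 CPM on Days 3, 7 and 14. The Notch ligand gene Dll4 was 73.2, 75.6 and 115.8 CPM there, and Epas1, which encodes HIF2A, was 97.6, 253 and 294 CPM. Esm1 and Apln had 0 UMIs in the lymphatic cells of Days 7 and 14. The phosphatase gene Ptprb, whose product acts on TIE2, was 58.5, 502 and 554 CPM in endothelial cell-like cells. Hif1a, the oxygen-regulated transcription factor, was 603, 377 and 135 CPM in macrophage-like cells and 712, 380 and 215 CPM in fibroblast-like cells. Egln3, a prolyl hydroxylase gene induced by low oxygen, was 38.5, 17.5 and 0.736 CPM in macrophage-like cells. In macrophage-like cluster 0, where Vegfa was highest, Egln3 was 40.9 CPM on Day 3 and 53.3 CPM on Day 7.

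Likeness to each gene was measured as the Pearson correlation of log2(CPM + 1) over 21 sums of a class in a library, each of at least 50 cells, among 7025 genes that reached 50 CPM in any of them. The sums share libraries and depth, so the values are descriptions. Vegfa was most like Bnip3 (r = 0.85), Fnip1 (0.85) and Trim30d (0.83), Vegfb most like Hsbp1 (0.93), Smim11 (0.93) and Tmem223 (0.92), Vegfc most like Tspan18 (0.92), Dnm3 (0.91) and Thsd7a (0.91), and Pgf most like Nhlrc2 (0.80), Abhd17b (0.76) and Shc1 (0.75). Kdr was most like Cdh5 (0.87), Lhx6 (0.84) and Aplnr (0.83), and Flt1 most like Sorbs2 (0.93), Mcam (0.92) and Esam (0.90). Angpt1 was most like Lhfp (0.90), Tmem100 (0.90) and Maged2 (0.89), and Angpt2 most like Esam (0.92), Olfml2a (0.90) and Sncg (0.89). Tek was most like Ly6c1 (0.92), Pcsk6 (0.91) and Ackr1 (0.91), and Tie1 most like Prnd (0.99), Reln (0.98) and Cyyr1 (0.98). Bnip3 is a known target of HIF1, and Aplnr is a known endothelial gene. Cdh5 and Esam are endothelial markers and Mcam a pericyte marker in the lists that named the classes, so their likeness partly follows from the naming.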

How the data were processed

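Cells were dissociated from wounds pooled within a day and captured unsorted in 3 libraries, 1 library per day, by a 3′ droplet assay. The deposited tables hold raw UMI counts per gene and barcode, which the authors made with Cell Ranger 6.0.0 on mm10, per the submitters' processing notes; the annotation is not given in the sources used here. On Days 3, 7 and 14 there were 5158, 22924 and 16611 barcodes, and their total UMIs were 38133650, 120940799 and 112713257.

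Barcodes were dropped below 200 genes or 500 UMIs, or above 10% of UMIs from mitochondrial genes. Doublets were scored within each library against simulated doublets, and 92, 1978 and 962 cells were removed. All libraries were clustered together without batch correction (2000 variable genes, 30 principal components, 15 neighbours, Leiden resolution 1), with the 10 genes, the pathway genes and others, 141 in all, left out, which gave 33 clusters. A cluster was named from at least 3 markers of its class, unless a marker of another class led it, another class scored alike or its UMIs were low. The mesenchymal list follows the study's own cluster table, made on these libraries.

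For each class and library the UMIs of a gene were added up and divided by the UMIs of all genes. Levels carry exact Poisson intervals, ratios exact conditional binomial intervals and shares Clopper-Pearson intervals, at 95%, and were tested on simulated data. Genes with at least 50 UMIs over both libraries entered the 2-fold counts, with a gene at 0 set to 3 counts. The genes named are the 10, the 25 pathway genes, the 3 most alike to each, and markers or leading genes of clusters. The gene group, the lists and the measures were chosen with earlier results of these data known. Alternatives changed the scaling, the weight of cells, the cell filters, doublet removal, clustering and naming, and 2 were chosen after seeing the data. By Ensembl ID 32158 of the 32285 genes had a symbol, positions come from GENCODE (GRCm38) and promoters from RefSeq (GRCm38.p6). Python 3.11.15, numpy 2.4.6, scipy 1.17.1, pandas 2.3.3, scikit-learn 1.9.0, leidenalg 0.10.2 and igraph 0.11.9 were used.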

Additional observations from a re-analysis of the deposited data

Results flagged for a closer look

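The log2 ratios of Kdr and Angpt2 between the same libraries had opposite signs in different cell classes, with intervals on either side of 0. None of these differences between classes was tested, since each day had 1 library.

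Kdr was lower in the Day 7 than in the Day 3 library in macrophage-like cells (log2 ratio -1.35) and dendritic cell-like cells (-1.72) and higher in fibroblast-like cells (2.48), so the log2 ratios differed by -3.83 and -4.20. Within macrophage-like cluster 0, which made up 86.3% of that class on Day 3 and 8.22% on Day 7, the Kdr log2 ratio was -0.33 (-1.34 to 0.55). Angpt2 between the same libraries had a log2 ratio of -0.70 in macrophage-like cells, 3.21 in fibroblast-like cells and 0.81 in pericyte-like cells. Within macrophage-like cluster 0 it was 0.33 (-1.10 to 1.54), and within cluster 1, which went from 15.3 to 4.39 CPM on 12 and 35 UMIs, it was -1.80 (-2.78 to -0.72). Over the class, the macrophage-like levels of 3.76 and 2.31 CPM on Days 3 and 7 were also no higher than the 3.42 and 3.13 CPM of neutrophil-like cells beyond counting error, so they are given as values. The fibroblast-like level of 2.81 CPM on Day 7 was likewise not above the 2.85 and 3.13 CPM of T cell-like and neutrophil-like cells. Those values rest on 2 and 4 UMIs in cells of lower median depth, so they cannot set a background for fibroblast-like or macrophage-like cells. The macrophage-like value lay -3.91 from the fibroblast-like value and -1.51 from the pericyte-like value. Between Days 7 and 14 Angpt2 had a log2 ratio of -1.65 in macrophage-like cells, 1.78 in fibroblast-like cells and -1.28 in endothelial cell-like cells. The macrophage-like ratio differed from the fibroblast-like ratio by -3.43, and the fibroblast-like ratio exceeded the endothelial cell-like ratio by 3.06. The Day 3 Angpt2 value in fibroblast-like cells rests on 6 UMIs, and the log2 ratio of 3.21 became 1.06 with each library clustered alone.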

How the results depend on the processing

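Of 1221 values of 94 log2 ratios recomputed under 14 alternatives, 1080 stayed within the counting interval of the ratio as reported, 130 left it, and 11 had the opposite sign to a ratio whose interval excluded 0, in 8 ratios. Ratios whose interval held 0 also changed sign, such as Pgf in endothelial cell-like cells between Days 3 and 7 (-0.53), which reached 2.11 with the full doublet rate removed. The cause of these shifts was not tested.

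Vegfa in macrophage-like cells between Days 3 and 7 (-1.52) was -1.27 without the 50 most abundant genes and -1.47 as a mean of CPM per cell. Between Days 7 and 14 (-0.82) it was -0.92 without those genes, -0.72 with median-of-ratios scaling, -0.95 with a 5% mitochondrial limit, -0.65 at resolution 0.5 and -0.69 with the class set per cell. In fibroblast-like cells (-0.61) it was -0.46 with median-of-ratios scaling, -0.46 per cell, -0.47 with the full doublet rate removed, -0.53 at resolution 0.5, -0.53 at resolution 2, -0.51 with each library clustered alone, -0.50 with the class set per cell and -0.49 with clusters 10 and 19 added. Angpt1 in fibroblast-like cells (0.62) was 0.77 with median-of-ratios scaling, 0.51 at resolution 2, 0.42 with the class set per cell and 0.41 with clusters 10 and 19 added. The endothelial share of receptor UMIs (41.2%) was 37.6% and 42.2% with mitochondrial limits of 5% and 20%, 39.6% with doublets kept, 39.6% with the full rate removed and 39.4% with the class set per cell.

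Among the 10 genes, the number past 2-fold in macrophage-like cells went from 4 to 8 between Days 3 and 7 with no filter on UMIs, and from 3 to 0 between Days 7 and 14 with at least 200 UMIs. In endothelial cell-like cells it went from 2 to 1 with at least 200 UMIs and to 1 without the 50 most abundant genes. The shares of all genes past 2-fold under these changed settings are not given, so these counts describe the settings and say nothing particular of the 10.

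Signs changed for Angpt1 over all cells between Days 3 and 7 (-0.16), to 0.09 without the 50 most abundant genes and 0.96 per cell. Flt1 in endothelial cell-like cells changed between Days 3 and 7 (-0.31), to 0.036 with median-of-ratios scaling, 0.83 per cell and 0.59 with the full doublet rate removed, and between Days 7 and 14 (0.26) to -0.002 with the full rate removed. It changed between Days 3 and 7 in fibroblast-like cells to -2.82 with each library clustered alone, and in pericyte-like cells to 0.00 with the class set per cell. Vegfa in endothelial cell-like cells became -0.13 per cell, Pgf over all cells between Days 7 and 14 (-0.40) became 0.53 per cell, and Pgf in pericyte-like cells between Days 3 and 7 became 1.35 with a 5% mitochondrial limit.

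Some combinations gave no value, most of them Day 3 pericyte-like or endothelial cell-like cells with each library clustered alone. No paired analysis was possible because each day had 1 library. With 10 and 13 such cells on Day 3, the number of cells limits every Day 3 value of these classes.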
